A study of Homo sapiens with 6 samples.

Results

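Interferon-stimulated genes were followed in the human neuroblastoma line SK-N-AS across 3 cultures of 2 arrays each, 6 arrays in all. The set holds 39 genes chosen by symbol, and 38 of them had a probe set named in the platform annotation. For STAT2, a transcription factor that works with IRF9 to switch these genes on, no probe set is named there, and it was not analysed here. A gene counted as measured when its log2 signal was 5 or more on at least 2 of the 6 arrays, and it was read from the probe set with the highest mean. Of the 38, 25 were measured and 13 were not, among 10459 genes measured on the arrays.

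Cells of the iCSC culture grew attached during 5 days in 2.5 uM 5AdC (azadeoxycytidine, which inhibits DNA methyltransferases), and were then kept as spheroids in medium without serum. Sphere cells grew as spheroids without serum and without drug, and Monolayer cells grew attached without drug. How long the spheroids grew after the exposure is not given in the sources used here. The labels do not state whether both arrays of a culture trace to separate dishes. The p-values then cover only the spread between arrays, which may be technical. All 3 cultures come from 1 cell line.

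Interferons are secreted proteins that cells release when their sensors detect foreign or misplaced nucleic acid. Type I interferon binds the receptor pair IFNAR1 and IFNAR2, the kinases JAK1 and TYK2 pass the signal on, and a complex that holds STAT2 and IRF9 binds a promoter motif called the interferon-stimulated response element (ISRE). The genes it switches on make proteins that degrade viral RNA, block translation or trap virus particles, and others that sense nucleic acid or dampen the signal. Inhibitors of DNA methylation are known from other cancer cells to bring on this response through double-stranded RNA from derepressed repeats.

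Promoter windows of 300 bases (250 before the gene start to 50 from it) were found in the RefSeq table of build GRCh38.p14 for 31 of the 39 genes. The ISRE core was searched on both strands as GAAANNGAAA, which reads TTTCNNTTTC on the other strand. The GAS element, a site for STAT dimers, was searched as TTCNNNGAA, which is its own reverse complement in form. The ISRE core was in the window of 22 of 31 genes (71%), among 4.38% of all 27305 genes in the table. The GAS letters were in the window of 11 of 31 (35.5%), among 9.38% of all genes. Among measured genes 16 of 22 held the ISRE core, and among those under the limit 6 of 8 did. Such matches describe letters and do not show binding.

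The windows of 6 genes whose differences between the cultures are described below are shown, from 180 bases before the gene start to 10 from it, 5′ to 3′ on the gene's strand. Capitals mark the ISRE core on either strand and, in IRF1 alone, the GAS letters.
IFITM1, chr11:313860-314049, plus strand: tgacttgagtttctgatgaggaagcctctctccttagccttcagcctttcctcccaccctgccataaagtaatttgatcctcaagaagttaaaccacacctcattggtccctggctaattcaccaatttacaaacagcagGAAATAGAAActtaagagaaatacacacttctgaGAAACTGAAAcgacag
IFI44L, chr1:78620268-78620457, plus strand: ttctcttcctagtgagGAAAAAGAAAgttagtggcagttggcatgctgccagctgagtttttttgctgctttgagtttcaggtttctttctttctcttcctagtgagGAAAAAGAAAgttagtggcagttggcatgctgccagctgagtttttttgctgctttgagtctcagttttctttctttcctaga
ISG15, chr1:1013317-1013506, plus strand: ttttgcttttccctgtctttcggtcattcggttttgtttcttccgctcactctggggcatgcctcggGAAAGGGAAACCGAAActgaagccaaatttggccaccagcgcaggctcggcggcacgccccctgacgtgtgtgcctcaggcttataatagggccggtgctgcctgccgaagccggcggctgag
OAS3, chr12:112938294-112938483, plus strand: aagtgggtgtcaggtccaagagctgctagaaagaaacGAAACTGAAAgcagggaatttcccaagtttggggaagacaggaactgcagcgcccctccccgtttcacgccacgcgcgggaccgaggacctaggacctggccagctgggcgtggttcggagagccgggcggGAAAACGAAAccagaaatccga
IFIH1, chr2:162318675-162318864, minus strand: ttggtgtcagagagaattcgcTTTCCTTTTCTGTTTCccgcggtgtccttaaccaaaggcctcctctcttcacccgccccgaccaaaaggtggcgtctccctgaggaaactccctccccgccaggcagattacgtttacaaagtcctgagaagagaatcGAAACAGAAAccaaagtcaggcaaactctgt
IRF1, chr5:132490764-132490953, minus strand: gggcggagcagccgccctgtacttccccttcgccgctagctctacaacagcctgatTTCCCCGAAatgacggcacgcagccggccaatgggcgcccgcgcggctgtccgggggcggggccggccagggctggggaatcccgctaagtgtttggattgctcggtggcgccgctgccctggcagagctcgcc

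IFITM1, IFI44L, ISG15, OAS3 and IFIH1 held the ISRE core at 2 or 3 starts, and IRF1 held none but 1 GAS match. In ISG15 and IFIH1 neighbouring matches overlap each other. A GAS match of IFITM1 overlaps its ISRE core nearest to the gene start. The windows differed widely in CpG dinucleotides, the sites of DNA methylation. IFI44L had 0 and IFITM1 had 3 in the whole window, whereas ISG15 and OAS3 had 20 each and IRF1 had 36, and the median over all windows in the table was 14.

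Levels below are log2 GCRMA signals per array, and differences are log2 with their standard error (SE), n = 2 arrays a culture. Tests are limma's moderated test over the 10459 genes with Benjamini-Hochberg adjustment, and genes with an adjusted p under 0.05 are termed called. Arrays of a culture correlated at 0.984 to 0.996 over these genes. The 3' minus 5' difference of the ACTB control probe sets, a sign of RNA integrity, was 1.47 and 1.40 in iCSC, 1.22 and 1.21 in Sphere, and 1.25 and 1.16 in Monolayer, and its part in the results was not tested. Of 6 neuroblast markers with a probe set, GATA3, ISL1 and HAND2 were measured in the Sphere and iCSC arrays. None of these was called higher in iCSC than in Monolayer, but each was in Sphere. iCSC minus Monolayer was -0.25 for GATA3, -1.14 for ISL1 and 0.25 for HAND2 (limma, adjusted p = 0.366, 0.000727 and 0.272). Sphere minus Monolayer was 3.86, 1.33 and 0.95 in the same order (limma, adjusted p = 1.91e-05, 3e-04 and 0.0042). PHOX2A and TH were at 3.61 and 2.38 in Monolayer, under the limit, and DBH was under it on all 6 arrays. PHOX2A and TH were higher in iCSC than in Monolayer (limma, adjusted p = 0.00137 and 0.000502), by at least 1.42 and 1.07 over the alternatives. The TH call was lost in 1 of 17 alternatives. In Sphere PHOX2A and TH were higher than in Monolayer by at least 4.16 and 2.01, and the filter set these directions.

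Many genes that respond strongly to interferon were under the limit in all 3 cultures, iCSC included. MX1 and MX2, GTPases that trap viral nucleocapsids and respond strongly to interferon, stayed between 2.08 and 2.23 on all 6 arrays. The RNA synthetase OAS2 lay between 2.58 and 2.66, and its relative OASL between 2.85 and 2.87. XAF1, EPSTI1 and TRIM22, also classic responders, lay between 2.46 and 2.89. IFIT1, which binds viral RNA ends, read 3.16 and 3.27 in iCSC, 2.70 and 2.67 in Sphere, and 2.54 and 2.48 in Monolayer, in the range of unexpressed probe sets. Signals under the limit give only a bound, so a low level of these RNAs was not measurable.

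The rest of the 13 came nearer to the limit of 5. RSAD2 (viperin) reached 4.96 and IFIT2 4.94 on the first Sphere array, with every other array lower. HERC6, related to the ISG15 ligase HERC5, read 2.60 and 2.73 in iCSC, against 4.27 and 3.41 in Sphere and 4.75 and 4.70 in Monolayer. ISG20, an RNA exonuclease, read 3.65 and 4.12 in iCSC, 2.46 and 3.0 in Sphere, and 4.58 and 4.81 in Monolayer. IFI27 stood at 4.47 and 2.69 in Sphere and at no more than 1.96 in the other cultures. Just inside the limit were OAS1, with 3 arrays above it, and IRF7 and IFI44L, with 4 each. None of the 18 interferon genes with a probe set passed: IFNB1, type I interferon beta, lay between 2.33 and 2.40, and the highest value of any of the 18 was 3.20.

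**Figure D1:**
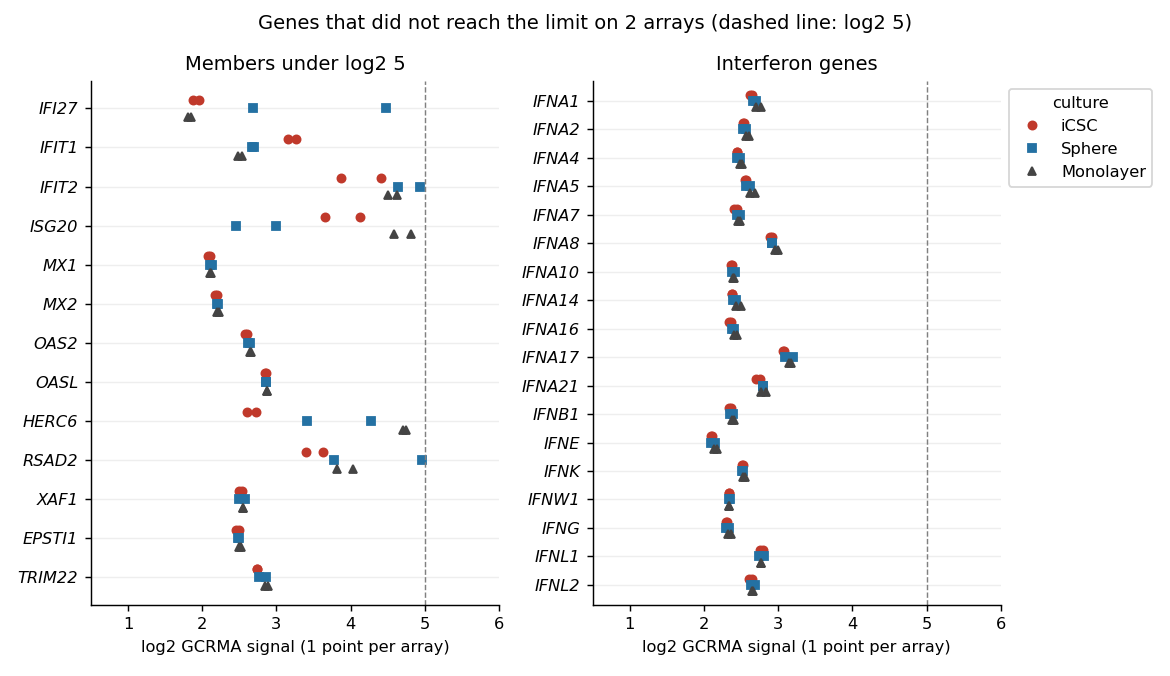
Log2 GCRMA signal (x axis, 1 point per array) of the 13 interferon-stimulated genes under the limit, left, and of 18 interferon genes, right, with iCSC (circles), Sphere (squares) and Monolayer (triangles) from top to bottom in each row. All points lie left of the dashed line at log2 5, the highest being RSAD2 at 4.96 on a Sphere array.

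Setting iCSC against Sphere compares spheroids with and without the earlier exposure. Genes moved in both directions: 13 of the 25 measured genes were called, 5 higher in iCSC and 8 lower. Over all genes tested, 38.5% were called, 19.3% higher and 19.2% lower. Differences of at least 1 were called for 4 higher genes (7.47% of all) and 6 lower ones (9.07% of all). The arrays of iCSC and Sphere did not overlap for 17 of the 25, beside 69.4% of all genes. The median difference of the 25 was -0.10, against 0.01 over all genes, and single differences ran from -2.95 to 4.03. Of the 25, 14 had an unadjusted p under 0.05, beside 5031 of all 10459 genes. In bulk RNA, fewer cells with a transcript and less of it per cell cannot be told apart.

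Of the 3 measured transcription factors, IRF1 was lower and IRF7 higher in iCSC than in Sphere, and IRF9 was not called. IRF1, which drives many interferon gamma targets, had 5.07 and 5.64 in iCSC, against 8.22 and 8.39 in Sphere and 7.47 and 6.98 in Monolayer. The iCSC arrays were the lowest and did not overlap with the others. IRF1 was lower in iCSC, at a log2 difference of -2.95 ± 0.26 against Sphere (limma, adjusted p = 0.000293) and -1.87 ± 0.26 against Monolayer (adjusted p = 0.00128). IRF7, the factor that amplifies type I interferon production, had 6.79 and 7.02 in iCSC, against 5.32 and 5.40 in Sphere and 4.33 and 4.25 in Monolayer. Both iCSC arrays stood above both Sphere arrays, and the Monolayer arrays were under the limit. IRF7 was higher in iCSC by 1.54 ± 0.17 than in Sphere (adjusted p = 0.000841), and at least 3.74-fold higher than in Monolayer (adjusted p = 5.22e-05). Since IRF7 passed the filter through iCSC and Sphere, its direction against Monolayer was set by the filter.

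IRF9, the DNA-binding part of the STAT complex, lay between 6.51 and 7.13 on all arrays and was not called in any comparison (adjusted p from 0.367 to 0.857). No alternative called it either, but the sign of its difference depended on the setting. From the main value of -0.20, iCSC minus Sphere ranged between -0.51 and 0.47. From 0.06, iCSC minus Monolayer ranged between -0.25 and 0.65. In iCSC, genes of chromosome 14, where IRF9 lies, had median differences of -0.67 from Sphere and -0.59 from Monolayer. A probe set shared by RNF31 and IRF9 read 5.76 and 5.64 in iCSC, below 6.94 and 6.78 in Sphere and 6.78 and 6.41 in Monolayer, and was not tested.

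IFIH1 and both measured OAS enzymes, which act on double-stranded RNA, were higher in Sphere than in either other culture. IFIH1 (MDA5), which detects long double-stranded RNA, had 6.21 and 5.96 in iCSC, against 8.14 and 7.85 in Sphere and 5.87 and 5.85 in Monolayer. The Sphere arrays stood well above the others, which differed little. IFIH1 was lower in iCSC than in Sphere at a log2 difference of -1.91 ± 0.18 (limma, adjusted p = 0.000415), and iCSC minus Monolayer was 0.22 ± 0.18 (adjusted p = 0.351). OAS3, which makes the 2-5A messenger that turns on RNase L, had 6.85 and 7.68 in iCSC, against 8.86 and 9.06 in Sphere and 5.60 and 5.57 in Monolayer. The cultures did not overlap, with iCSC between the other two. OAS3 was lower in iCSC than in Sphere at a log2 difference of -1.70 ± 0.27 (adjusted p = 0.00404, with 0.000947 to 0.0632 over the alternatives, the highest with no variance moderation) and higher than in Monolayer by 1.68 ± 0.27 (adjusted p = 0.00255).

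OAS1, a neighbour of OAS3 with the same activity, had 4.70 and 5.10 in iCSC, against 6.45 and 6.84 in Sphere and 4.78 and 4.69 in Monolayer. It was above the limit on both Sphere arrays, on 1 iCSC array and on no Monolayer array. iCSC minus Sphere was -1.75 ± 0.22 (limma, adjusted p = 0.00145), and -1.60 with values under the limit set to it, a direction that the filter favoured. The median difference of the genes of chromosome 12, which carries both OAS genes, was 0.06 in iCSC against Sphere, 0.54 in iCSC against Monolayer and 0.49 in Sphere against Monolayer. With chromosome medians removed, the OAS3 and OAS1 calls were kept in each comparison that had one. In the same setting the HERC5 difference of iCSC and Sphere was -0.24 (adjusted p = 0.285), PARP14 was at -0.16 in iCSC against Monolayer (0.489) and -0.22 in Sphere against Monolayer (0.333), and PARP9 was called higher in Sphere than in Monolayer at 0.57 (0.0322). Over all alternatives these adjusted p ran from 0.0383 to 0.285, 0.0138 to 0.489, 0.00757 to 0.333 and 0.0322 to 1. ADAR, which edits double-stranded RNA so that IFIH1 ignores it, lay between 11.44 and 11.77 on all arrays and was not called (adjusted p from 0.411 to 0.763), except as lower in iCSC than in Monolayer without iCSC replicate 2 (0.0471, with 0.0471 to 0.807 over the alternatives).

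Both measured IFIT genes were lower in iCSC than in Monolayer, and IFIT3 also than in Sphere. IFIT3, a partner of IFIT1, had 6.09 and 6.68 in iCSC, against 7.35 and 7.45 in Sphere and 7.80 and 8.05 in Monolayer. The iCSC arrays were the lowest, with a log2 difference of -1.02 ± 0.23 against Sphere (limma, adjusted p = 0.0142) and -1.54 ± 0.23 against Monolayer (adjusted p = 0.00165). The Sphere call was lost without Sphere replicate 1 (adjusted p = 0.0679), without Sphere replicate 2 (0.0847) and with no variance moderation (0.0909), out of 0.00593 to 0.0909 over the alternatives. IFIT5, an RNA-binding relative, had 8.85 and 9.02 in iCSC, against 9.35 and 9.16 in Sphere and 10.21 and 9.95 in Monolayer. It was lower in iCSC than in Monolayer at a log2 difference of -1.15 ± 0.14 (adjusted p = 0.000811), while iCSC minus Sphere was -0.32 ± 0.14 and was not called (adjusted p = 0.126).

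**Figure D2:**
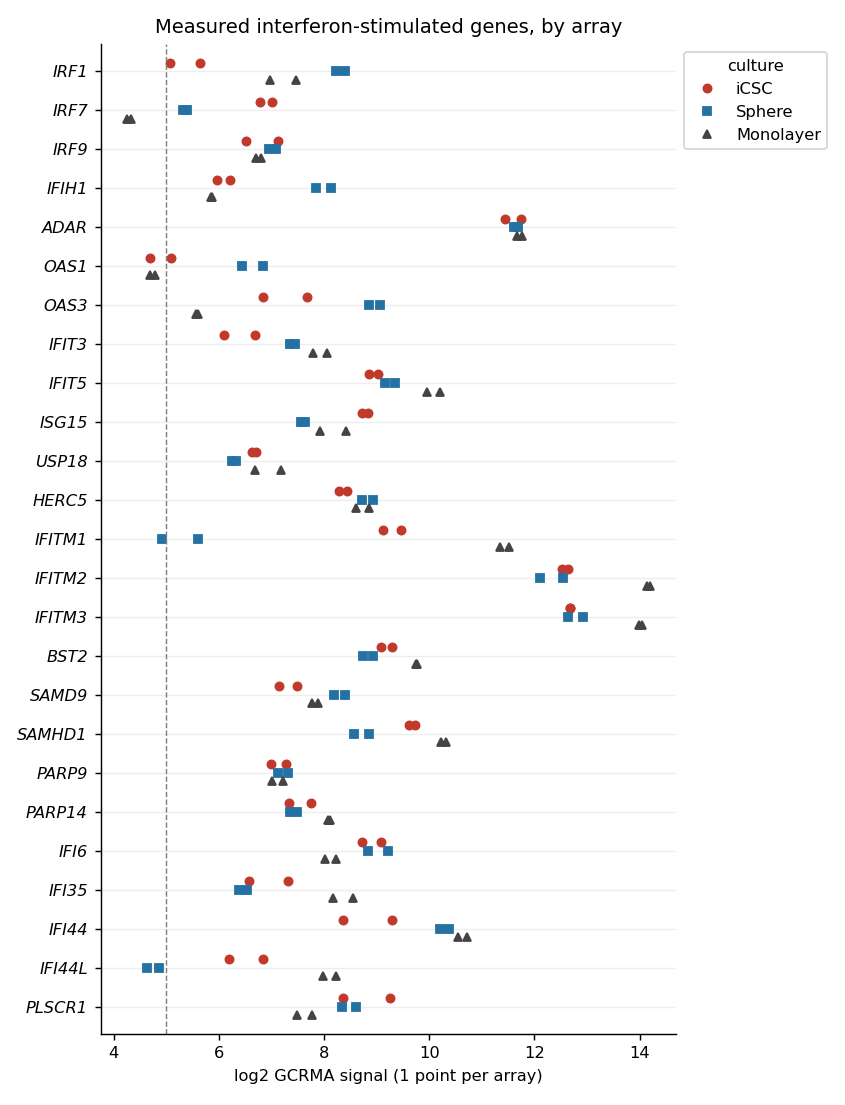
Log2 GCRMA signal (x axis, 1 point per array) of the 25 measured interferon-stimulated genes, ordered by role, with iCSC (circles), Sphere (squares) and Monolayer (triangles) and the limit of log2 5 as a dashed line. IFITM1 is spread from 4.93 to 11.52, while ADAR stays between 11.44 and 11.77.

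ISG15 was the member of its pathway that rose in iCSC. ISG15, a ubiquitin-like protein attached to other proteins after interferon, had 8.84 and 8.73 in iCSC, against 7.63 and 7.56 in Sphere and 8.42 and 7.92 in Monolayer. Both iCSC arrays were above all others. The difference was 1.19 ± 0.19 against Sphere (limma, adjusted p = 0.00377) and 0.62 ± 0.19 against Monolayer (adjusted p = 0.0313). The Monolayer call was lost in 9 of 18 alternatives, including without Monolayer replicate 2 (adjusted p = 0.162), iCSC replicate 1 (0.106), iCSC replicate 2 (0.0653), Sphere replicate 1 (0.0620) or Sphere replicate 2 (0.0619), out of 0.0199 to 0.162 over the alternatives. USP18, which removes ISG15 and blocks the receptor, lay between 6.25 and 7.18, and iCSC was called against neither culture (adjusted p = 0.181 against Sphere and 0.315 against Monolayer). HERC5, the main ligase for ISG15, was at 8.28 and 8.44 in iCSC, against 8.73 and 8.93 in Sphere. Its difference of -0.48 ± 0.15 was called by a small margin (adjusted p = 0.0494) and lost under 14 of 19 alternatives, with adjusted p between 0.0383 and 0.285.

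Among the membrane restriction factors IFITM1 changed most. IFITM1, a small protein that blocks virus entry at the cell surface, had 9.47 and 9.12 in iCSC, against 5.60 and 4.93 in Sphere and 11.35 and 11.52 in Monolayer. The 3 cultures were far apart, and 1 Sphere array was under the limit. IFITM1 was higher in iCSC than in Sphere by 4.03 ± 0.25 (limma, adjusted p = 5.49e-05) and lower than in Monolayer at a log2 difference of -2.15 ± 0.25 (adjusted p = 0.000562). In Sphere it was lower than in Monolayer at a log2 difference of -6.17 ± 0.25 (adjusted p = 4.07e-06). A probe set that carries the symbols of both IFITM1 and IFITM2, and was not tested, gave 3.73 for iCSC minus Sphere and -5.83 for Sphere minus Monolayer.

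IFITM2 and IFITM3, which act on endosomes, lie beside IFITM1 but did not share its contrast between the spheroid cultures. IFITM2 had 12.64 and 12.52 in iCSC, against 12.11 and 12.55 in Sphere and 14.14 and 14.19 in Monolayer. IFITM3 had 12.67 on both iCSC arrays, against 12.64 and 12.93 in Sphere and 13.99 and 14.04 in Monolayer. Both genes overlapped between iCSC and Sphere, where neither was called (adjusted p = 0.214 and 0.430). Against Monolayer iCSC was lower at a log2 difference of -1.59 ± 0.14 for IFITM2 and -1.34 ± 0.10 for IFITM3 (limma, adjusted p = 0.000182 and 8.93e-05). IFITM2 was called higher in iCSC than in Sphere without Sphere replicate 2 (adjusted p = 0.0234) and with chromosome medians removed (0.0471), out of 0.0234 to 0.845 over the alternatives. Both were read from probe sets of the x_at type, which can pick up similar transcripts of this family, so the values of IFITM2 and IFITM3 are uncertain for each gene alone.

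BST2 (tetherin), which holds budding virus at the membrane, was 9.08 and 9.30 in iCSC, against 8.94 and 8.75 in Sphere and 9.75 and 9.76 in Monolayer. iCSC minus Sphere was 0.34 ± 0.13 and was not called (limma, adjusted p = 0.0785), except without iCSC replicate 1 (0.0467) and with chromosome medians removed (0.0320), out of 0.0320 to 0.291 over the alternatives. Against Monolayer it was lower in iCSC at a log2 difference of -0.57 ± 0.13 (adjusted p = 0.00971), lost without Monolayer replicate 1 (0.0634), Monolayer replicate 2 (0.0650) or with chromosome medians removed (0.0627), out of 0.00715 to 0.0650.

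The factors that act on nucleotides and RNA were split. SAMHD1, which depletes the nucleotides that viruses need for DNA synthesis, had 9.72 and 9.61 in iCSC, against 8.86 and 8.57 in Sphere and 10.32 and 10.22 in Monolayer. iCSC stood between the others, with log2 differences of 0.95 ± 0.13 against Sphere (limma, adjusted p = 0.00215) and -0.60 ± 0.13 against Monolayer (adjusted p = 0.00890, and 0.0725 without Monolayer replicate 1, out of 0.00261 to 0.0725). All 5 passing probe sets of SAMHD1 gave the same signs, although the Sphere call was lost with the probe set of largest spread (0.0540, out of 0.00121 to 0.0540). SAMD9, which restricts poxviruses, had 7.14 and 7.48 in iCSC, against 8.40 and 8.19 in Sphere and 7.78 and 7.88 in Monolayer. It was lower in iCSC than in Sphere at a log2 difference of -0.98 ± 0.17 (adjusted p = 0.00567), a call kept under all 19 alternatives.

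IFI44 and IFI44L, adjacent genes for proteins linked to restraint of viral growth, differed in opposite directions between the spheroid cultures. IFI44 had 8.36 and 9.30 in iCSC, against 10.20 and 10.38 in Sphere and 10.54 and 10.71 in Monolayer, so the iCSC arrays were the lowest. IFI44L had 6.20 and 6.84 in iCSC, against 4.64 and 4.86 in Sphere and 7.99 and 8.22 in Monolayer, so the Sphere arrays were the lowest and under the limit. IFI44 was lower in iCSC than in Sphere at a log2 difference of -1.46 ± 0.29 (limma, adjusted p = 0.00852, and 0.0658 without Sphere replicate 2, out of 0.000413 to 0.0994). Against Monolayer it was lower in iCSC at a log2 difference of -1.80 ± 0.29 (adjusted p = 0.00228), a call lost with no variance moderation (0.0509) and once x_at and s_at probe sets were dropped (0.433), out of 0.000165 to 0.433. In iCSC, IFI44L was above Sphere at least 2.87-fold (adjusted p = 0.00226), and lower than in Monolayer at a log2 difference of -1.58 ± 0.25 (adjusted p = 0.00219). The test of the difference between the 2 genes was not run. IFI44L passed the filter through iCSC and Monolayer, so the filter set its direction against Sphere. A second probe set of IFI44 gave -1.30 for iCSC minus Sphere, and 0.92 for Sphere minus Monolayer where the one used gave -0.34.

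Most of the other measured genes differed little between iCSC and Sphere. IFI35, which forms a complex with NMI, had 6.57 and 7.31 in iCSC, against 6.38 and 6.54 in Sphere and 8.56 and 8.18 in Monolayer. PLSCR1, a scramblase that can also act in the nucleus, had 8.36 and 9.26 in iCSC, against 8.35 and 8.60 in Sphere and 7.77 and 7.49 in Monolayer. Neither was called between iCSC and Sphere (limma, adjusted p = 0.223 and 0.419), except without iCSC replicate 1 (0.0374 and 0.0334), the lowest values over the alternatives, which reached 0.767 and 0.753. IFI6, a mitochondrial survival factor, and the ADP-ribosylation proteins PARP9 and PARP14 were not called either, with differences between -0.13 and 0.13.

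**Figure D3:**
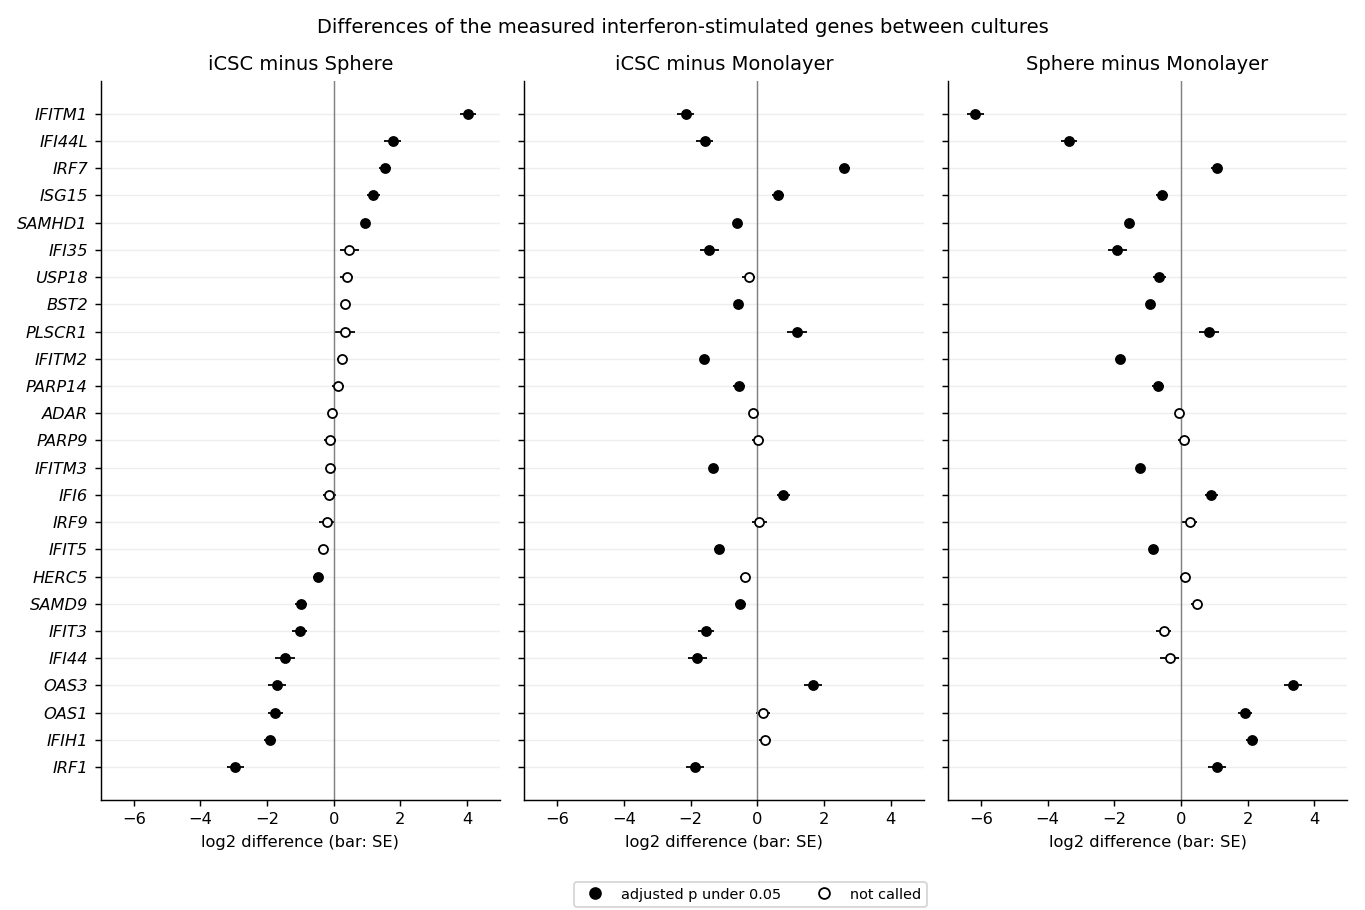
Log2 difference (x axis, bar: SE) of the 25 measured genes for iCSC minus Sphere, iCSC minus Monolayer and Sphere minus Monolayer, in the order of the first panel, with filled points for an adjusted p under 0.05. IFITM1 is highest in the left panel at 4.03 and IRF1 lowest at -2.95, and most filled points of the middle panel lie left of 0.

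iCSC against Monolayer asks how the exposed spheroids differed from the untreated attached cells. The drug, the growth form and any difference in medium cannot be told apart in it. Here 18 of the 25 genes were called, beside 55.6% of all genes. Of these 13 were lower in iCSC and 5 were higher, while 26.6% of all genes were called lower and 29.0% higher. Arrays did not overlap for 20 of the 25, beside 79.8% of all genes. The median difference of the 25 was -0.51, against 0.02 over all genes. The genes lower by at least 1 were IFITM1, IRF1, IFI44, IFITM2, IFI44L, IFIT3, IFI35, IFITM3 and IFIT5, which is 9 of 25 beside 11.0% of all genes, and 3 were higher by as much, beside 14.2%. IFI35 was lower at a log2 difference of -1.44 ± 0.28 (limma, adjusted p = 0.00504) and lost its call with no variance moderation (0.0593, out of 0.00219 to 0.0593).

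The 5 genes higher in iCSC than in Monolayer were IRF7, OAS3, PLSCR1, IFI6 and ISG15. PLSCR1 was higher by 1.18 ± 0.30 (limma, adjusted p = 0.0146) and IFI6 by 0.78 ± 0.19 (adjusted p = 0.0142). The PLSCR1 call was lost without Monolayer replicate 1 (0.0570) or 2 (0.0994), out of 0.00217 to 0.105. The IFI6 call was lost without Monolayer replicate 1 (0.0525), Monolayer replicate 2 (0.0971) or iCSC replicate 1 (0.0625), out of 0.00356 to 0.0971. SAMD9 and PARP14 were lower at a log2 difference of -0.51 ± 0.17 and -0.55 ± 0.18 (adjusted p = 0.0435 and 0.0381). These calls were lost under 10 and 9 of 19 alternatives, among them without each Monolayer replicate (SAMD9 0.126 and 0.186, PARP14 0.156 and 0.135), without iCSC replicate 1 (0.156 and 0.133), without Sphere replicate 1 (0.0688 and 0.0679) and without Sphere replicate 2 (0.0686 and 0.0684). The range over the alternatives was 0.0240 to 0.186 for SAMD9, which was also lost with the replicate block (0.0534), and 0.0138 to 0.489 for PARP14. With no variance moderation 10 of the 25 were called, 2 higher and 8 lower. The 2 comparisons with iCSC share the iCSC arrays, and those with Monolayer share the Monolayer arrays.

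The comparison of Sphere with Monolayer holds no drug and sets spheroids without serum against attached cells. Growth form and any difference in medium cannot be told apart in it. Of the 25 genes, 18 were called, beside 59.0% of all genes. In Sphere 7 were higher and 11 lower, beside 30.0% and 29.1% of all genes. At least 1 log2 unit separated 5 higher genes (16.1% of all) and 6 lower ones (12.5% of all). Arrays did not overlap for 22 of the 25, beside 84.2% of all genes. The median difference was -0.34, against 0.01 over all genes. OAS3 was higher by 3.37 ± 0.27, IFIH1 by 2.13 ± 0.18 and IRF1 by 1.08 ± 0.26 (limma, adjusted p = 1e-04, 0.000127 and 0.0117). OAS1 was at least 3.14-fold higher (adjusted p = 0.000493) and IRF7 at least 1.28-fold (adjusted p = 0.00214), directions that the filter set, since both genes were under the limit in Monolayer. IRF7 lost its call with values under the limit set to it (0.0590, out of 0.000985 to 0.0590), and IRF1 lost its own without Monolayer replicate 2 (0.0833) or Sphere replicate 2 (0.0720), out of 0.00689 to 0.0833. SAMD9, IFI44 and IFIT3, not called here (adjusted p = 0.0558, 0.352 and 0.0917), passed without iCSC replicate 1 (0.0346, 0.0399 and 0.0329) and without iCSC replicate 2 (0.0355, 0.0422 and 0.0338), and their ranges reached 0.245, 0.661 and 0.338.

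Lower in Sphere than in Monolayer were, beside IFITM1, IFI44L at least 8.60-fold (limma, adjusted p = 6.58e-05), IFI35 at a log2 difference of -1.91 ± 0.28 (adjusted p = 0.00127) and SAMHD1 at a log2 difference of -1.55 ± 0.13 (adjusted p = 0.000126). IFITM2 and IFITM3 differed at a log2 difference of -1.83 ± 0.14 and -1.23 ± 0.10 (adjusted p = 7.24e-05 and 0.000102). IFIT5 and BST2 were lower at a log2 difference of -0.83 ± 0.14 and -0.92 ± 0.13 (adjusted p = 0.00289 and 0.00115). Smaller differences were called for ISG15, USP18 and PARP14 (-0.57, -0.65 and -0.68) and, upwards, for IFI6 and PLSCR1 (0.91 and 0.85). These 5 calls were each lost when a Monolayer or Sphere replicate was left out. The adjusted p then reached 0.208 for ISG15 without Monolayer replicate 1, 0.157 for USP18 without Monolayer replicate 1, 0.0923 for PARP14 without Sphere replicate 1, 0.0584 for IFI6 without Monolayer replicate 2 and 0.212 for PLSCR1 without Monolayer replicate 2.

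Set side by side, Monolayer had the highest mean for 13 of the 25 genes, Sphere for 9 and iCSC for 3, which were ISG15, IRF7 and PLSCR1. Monolayer was highest for all 4 membrane factors and both IFIT genes, and Sphere for both OAS genes, IFIH1 and IRF1. Without a test across comparisons, this order is a description. The 10 genes outside the lists whose 6 array values followed the mean profile of the 25 most closely were KCNE4, PLAUR, ANXA2, ANXA2P2, S100A2, FUCA2, TGFB3, UTS2, LMNA and ADGRG6, at Pearson's r of 0.944 to 0.996 over 6 arrays, out of 1798 genes with a spread (SD) of at least 1. That profile was highest in Monolayer, at 0.30 and 0.19, and these genes were highest there because they were chosen by their likeness to it.

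Of 10 receptor and kinase genes of the interferon pathway with a probe set, 8 were measured, and IFNLR1 and JAK2 were under the limit on all arrays. IFNAR1, a chain of the type I receptor, lay at 6.36 in iCSC, 6.87 in Sphere and 6.73 in Monolayer, and was lower in iCSC than in Sphere at a log2 difference of -0.51 ± 0.16 (limma, adjusted p = 0.0457). That call was lost in 12 of 18 alternatives, including without any 1 of the 6 arrays (0.0536 to 0.152), with a range of 0.0191 to 0.152. IFNAR2 lay between 8.34 and 8.63 and was not called. The kinase JAK1 averaged 10.95 in iCSC and 11.20 in Sphere, both higher than 9.97 in Monolayer (adjusted p = 0.000337 and 9.73e-05). TYK2 averaged 8.66 in iCSC, with 9.62 in Sphere and 8.88 in Monolayer, and was lower in iCSC than in Sphere, at -0.96 ± 0.11 (adjusted p = 0.000929). Of the 8 genes, 1 was higher and 4 were lower in iCSC than in Sphere, beside 19.3% and 19.2% of all genes. The smaller calls, IL10RB (0.47), STAT3 (-0.41) and IFNGR2 (-0.31), were lost in 8, 6 and 8 of 19 alternatives, with adjusted p up to 0.147, 0.116 and 0.141.

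Negative regulators of the pathway were lower in iCSC than in Monolayer for 4 of 7 measured genes and higher for 3, beside 26.6% and 29.0% of all genes. PTPN2 (-0.40) and PTPN11 (0.22), phosphatases, had the smallest of these differences. The PTPN2 call was lost in 11 of 19 alternatives, with adjusted p up to 0.225. The PTPN11 call was lost in 10, and its direction turned with chromosome medians removed (-0.32, adjusted p = 0.00909), out of 0.00909 to 0.273. SOCS1, an inhibitor of the JAK kinases, averaged 4.21 in iCSC and 4.60 in Sphere, against 7.26 in Monolayer, at least 4.78-fold lower in each (limma, adjusted p = 0.000170 and 0.000247). It entered the test through Monolayer alone, so the filter set this direction. SOCS3 had 3.59 and 3.70 in iCSC, against 5.46 and 6.94 in Sphere and 7.32 and 7.0 in Monolayer. In iCSC it was at least 2.30-fold lower than in Sphere (adjusted p = 0.00569, with 0.0857 where values under the limit were set to it and 0.0828 with no variance moderation, out of 0.000999 to 0.0857) and at least 4.48-fold lower than in Monolayer (adjusted p = 0.000909). SOCS3 passed through Sphere and Monolayer, so the filter set its direction in iCSC. PIAS1, which blocks STAT binding to DNA, was higher in iCSC than in Sphere by 0.95 ± 0.11 (adjusted p = 0.000895).

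Nucleic acid sensors and adaptors also varied. Of 15 measured genes, 2 were higher and 4 lower in iCSC than in Sphere, shares of the order seen over all genes (19.3% and 19.2%). TLR7, an endosomal receptor for single-stranded RNA, had 2.51 and 2.50 in iCSC, against 8.08 and 8.89 in Sphere and 2.53 and 2.57 in Monolayer, at least 11.2-fold lower in iCSC than in Sphere (limma, adjusted p = 1.81e-05). It entered the test through Sphere alone, so the filter set this direction. The same holds for IKBKE, a kinase that activates IRF3, which had 3.86 and 3.95 in iCSC, against 5.65 and 6.89 in Sphere and 4.69 and 4.49 in Monolayer. It was at least 2.40-fold lower in iCSC than in Sphere (adjusted p = 0.00419, with 0.0698 with no variance moderation, out of 0.000740 to 0.0698). STING1, the adaptor for cytosolic DNA, was at 6.84 in iCSC and 7.23 in Sphere, lower than 9.53 in Monolayer at a log2 difference of -2.69 ± 0.14 and -2.30 ± 0.14 (adjusted p = 1.80e-05 and 2.61e-05). CGAS, its upstream enzyme, was under the limit on all arrays, at no more than 2.97. IFI16, a nuclear DNA sensor, was at 12.41 in iCSC and 12.76 in Sphere, higher than 8.46 in Monolayer (adjusted p = 7.23e-06 and 3.64e-06). MYD88, the adaptor of most Toll-like receptors, was lower in iCSC than in Sphere at a log2 difference of -1.43 ± 0.09 (adjusted p = 7.59e-05).

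RIGI, the sensor of short RNA ends, had a mean of 6.72 in iCSC, with 5.98 in Sphere and 6.16 in Monolayer, higher in iCSC than in Sphere by 0.74 ± 0.23 (limma, adjusted p = 0.0437). That call was lost in 13 of 18 alternatives, including without Sphere replicate 2 (0.185), iCSC replicate 1 (0.0507), iCSC replicate 2 (0.145), Monolayer replicate 1 (0.0864) or Monolayer replicate 2 (0.0864), with a range of 0.0331 to 0.392. For RIGI, iCSC minus Monolayer was 0.56 and not called (limma, adjusted p = 0.0778), but was called in 3 of 18 alternatives, with differences from 0.14 to 1.88. Sphere minus Monolayer was -0.18 (adjusted p = 0.535). It ran from -0.44 to 1.42, and in 3 alternatives RIGI was called higher in Sphere. MAVS, the mitochondrial adaptor of RIGI and IFIH1, averaged 8.57 in iCSC, 9.09 in Sphere and 8.39 in Monolayer, and was not called in iCSC against either (adjusted p = 0.0695 and 0.451). Against Sphere it was called lower with the mean over passing probe sets (-0.83, 0.00518), the probe set of largest spread (-1.10, 0.0121), without iCSC replicate 2 (-0.75, 0.0244) and with chromosome medians removed (-0.74, 0.0275), out of 0.00518 to 0.306. IRF3, which switches on the interferon beta gene, averaged 8.68 in iCSC and 8.58 in Sphere (adjusted p = 0.598), and 9.09 in Monolayer. TLR3, a receptor for double-stranded RNA, was above the limit in Monolayer alone on the probe set used. It was at least 2.04-fold lower in iCSC than in Monolayer (limma, adjusted p = 0.000761), a direction that the filter set. TLR3 was not called in iCSC against Sphere (adjusted p = 0.0541). It was called lower with the mean over passing probe sets (-1.32, 0.00148), the probe set of largest spread (-1.80, 0.00263) and without iCSC replicate 2 (-1.21).

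Among 37 measured interferon-induced genes outside the 39, 6 were higher and 10 lower in iCSC than in Sphere, beside 19.3% and 19.2% of all genes. Among the higher were PML, a nuclear body protein, at 0.89 ± 0.19 (limma, adjusted p = 0.0114), and OGFR at 0.79 ± 0.14 (adjusted p = 0.00576). The PML call was lost without Sphere replicate 1 (0.0624), with no variance moderation (0.0504) and with chromosome medians removed (0.42, 0.139), out of 0.00747 to 0.139. The T cell chemokines CXCL10 and CXCL11 were above the limit in Sphere alone. CXCL10 had 2.30 and 2.49 in iCSC, against 10.66 and 11.36 in Sphere and 2.32 and 2.33 in Monolayer, at least 64.6-fold lower in iCSC than in Sphere (adjusted p = 3.50e-06). CXCL11 had 2.34 and 2.36 in iCSC, against 8.36 and 9.02 in Sphere and 2.38 and 2.42 in Monolayer, at least 12.9-fold lower in iCSC than in Sphere (limma, adjusted p = 8.60e-06). CD274 (PD-L1), a checkpoint ligand, was at least 3.38-fold lower in iCSC than in Sphere (adjusted p = 0.000136). The guanylate-binding proteins GBP1, GBP2 and GBP3, large GTPases induced by interferon gamma, were lower in iCSC than in Sphere at log2 differences of -2.13 ± 0.31 for GBP1 and -2.73 ± 0.30 for GBP2, and at least 3.96-fold for GBP3 (adjusted p = 0.00252, 0.000833 and 0.000156). The GBP1 call was lost with no variance moderation (0.0570, out of 0.000264 to 0.0570). They were also lower in iCSC than in Monolayer, GBP3 at least 21.2-fold (adjusted p = 1.24e-05). PSMB8, an immunoproteasome subunit, had 9.05 and 9.04 in iCSC and 9.59 and 9.51 in Sphere, against 2.32 and 2.64 in Monolayer. CXCL10, CXCL11 and CD274 entered the test through Sphere alone, GBP3 through Sphere and Monolayer and PSMB8 through iCSC and Sphere, so the filter set the direction of each against the cultures under the limit.

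Of the 9 genes of the endogenous retroviral list with a probe set, 3 were measured: the provirus-derived ERVK13-1 and the silencing factors SETDB1 and TRIM28. ERVK13-1 had 4.85 and 6.14 in iCSC, against 5.77 and 5.74 in Sphere and 6.04 and 6.99 in Monolayer, and was not called (limma, adjusted p = 0.708 and 0.111 for iCSC against Sphere and Monolayer). Against Monolayer it passed with the replicate block (0.04) and without iCSC replicate 2 (0.0188), out of 0.0188 to 0.476 over the alternatives. SETDB1 was higher than in Monolayer in iCSC (0.55 ± 0.11, adjusted p = 0.00660) and in Sphere (0.48 ± 0.11, adjusted p = 0.0103). With the mean over its passing probe sets these were 0.08 (0.699) and -0.07 (0.734), and with the probe set of largest spread -0.39 (0.234) and -0.62 (0.0717). Without Monolayer replicate 1 both calls were lost (0.0569 and 0.0782), and without Sphere replicate 1 the one in Sphere (0.0666), out of 0.00608 to 0.699 and 0.00986 to 0.734. TRIM28 was lower in Sphere than in Monolayer (-0.48 ± 0.12, adjusted p = 0.0116), which was lost without Monolayer replicate 1 (0.0925), Sphere replicate 1 (0.0501) or Sphere replicate 2 (0.0676), out of 0.00486 to 0.0925. TRIM28 was called higher in iCSC than in Sphere without iCSC replicate 1 (0.0210) and with chromosome medians removed (0.0259), out of 0.0210 to 0.231. The other 6 stayed at or under 3.15 on all arrays. Transcripts of repeats as such were not analysed here.

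Of 11 leukocyte markers with a probe set, 10 were under the limit on all arrays, at no more than 2.76. Among these were CD14, CD3D and TYROBP. The summed linear signal of the 10 was 50 in both iCSC arrays, 50 and 51 in Sphere, and 51 in both Monolayer arrays. PTPRC (CD45) alone was measured, at 2.86 in iCSC, 12.47 in Sphere and 11.74 in Monolayer, and its part in the interferon results was not tested. The fibroblast and endothelial list had a summed linear signal of 4455 and 3932 in iCSC, against 12709 and 13808 in Sphere and 2695 and 2563 in Monolayer, with 6 of 8 measured. The sum of that list was highest in Sphere, as were OAS3, OAS1, IFIH1 and IRF1, and its part in these results was not tested. Its genes did not all follow the sum. In iCSC against Sphere 4 were called lower and 1 higher, COL1A1 at 0.59 (limma, adjusted p = 0.0111, lost in 3 of 18 alternatives). In Sphere against Monolayer 5 were called higher and 1 lower, PDGFRA at -0.95 (adjusted p = 0.042, lost in 7 of 19). Over all genes these shares were 19.2% and 19.3%, and 30.0% and 29.1%. The mesenchymal neuroblastoma list summed to 36936 and 35392 in iCSC, 18873 and 23313 in Sphere, and 51136 and 49810 in Monolayer. The adrenergic list summed to 651 and 811 in iCSC, 8101 and 6274 in Sphere, and 993 and 842 in Monolayer. Of its 5 measured genes, 2 were called higher and 1 lower in iCSC than in Monolayer, beside 29.0% and 26.6% of all genes. In Sphere against Monolayer 5 were called higher and 0 lower, and in iCSC against Sphere 0 higher and 4 lower. For PHOX2A and TH the filter set the direction against Monolayer. Of the 8 mesenchymal genes, 1 was called higher and 7 lower in Sphere than in Monolayer. In iCSC against Sphere 5 of these were higher and 1 lower, and against Monolayer 2 higher and 4 lower. The part of both lists in the interferon results was not tested.

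**Figure D4:**
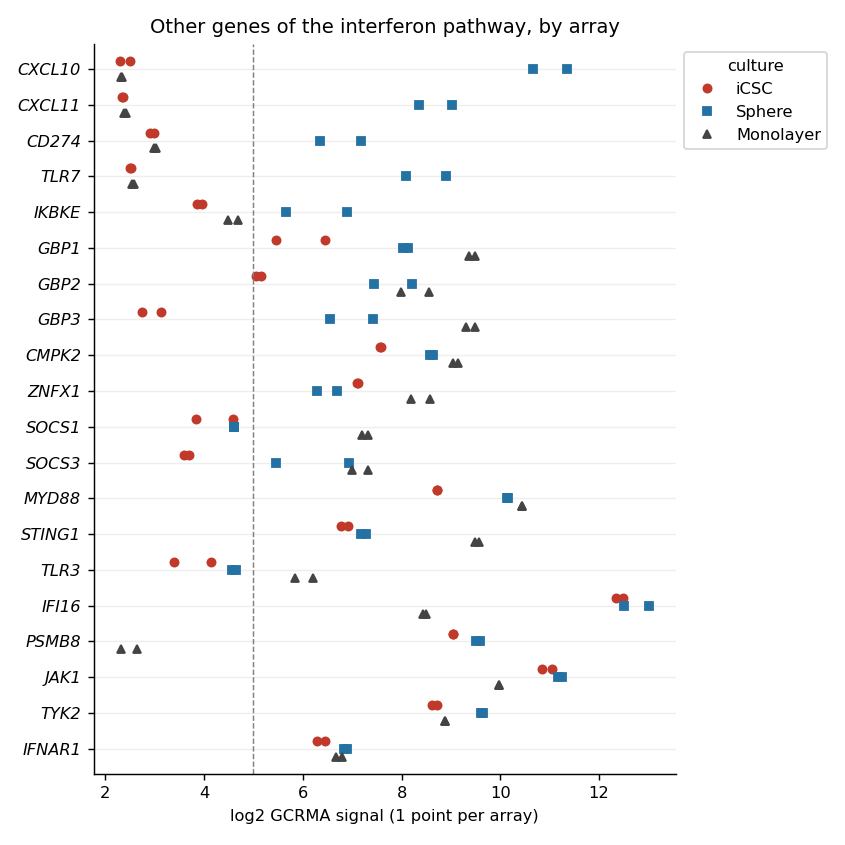
Log2 GCRMA signal (x axis, 1 point per array) of 20 other genes of the interferon pathway in iCSC (circles), Sphere (squares) and Monolayer (triangles), with the limit of log2 5 as a dashed line. CXCL10, CXCL11, CD274 and TLR7 lie right of the line in Sphere alone, and STING1 is highest in Monolayer, at 9.53 on average.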

How the data were processed

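RNA of 3 SK-N-AS cultures was measured on 6 Affymetrix HG-U133 Plus 2.0 arrays. RNA came from RNeasy columns and 200 ng were amplified and biotinylated with MessageAmp Premier, per the labels' protocols. The deposited values are log2 signals that the authors made with GCRMA, and Partek is also named, per the submitters' processing notes. No version is stated there. Since GCRMA compresses unexpressed signals into a narrow low band, fold changes against a culture with both arrays under log2 5 are given as bounds from it.

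Of 54675 probe sets, 41091 had 1 gene symbol and 1801 had several, which were not tested. Each gene was read from its probe set with the highest mean among those at log2 5 or more on at least 2 of 6 arrays, leaving 10459 genes. One limma model (3.58.1, R 4.3.3) with 3 residual degrees of freedom gave all 3 comparisons, with Benjamini-Hochberg adjustment over these genes. The procedure was also run on simulated data in which far fewer genes were changed than were called here. That run does not show how reliable the calls of these arrays are.

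Genes called with a difference of at least 1 log2 unit are given on every array, other measured genes by range, and the rest by name. From the other lists, up to 6 called genes per comparison could be named, by the size of the difference after values under log2 5 were set to 5, and a few more beside them. Fixed pathway genes are named whatever their values, and PTPN2, PTPN11, PML and OGFR were chosen after their values were seen. The genes and lists were chosen with earlier results of these data known. In all, 19 alternative settings were run, of which 1 (chromosome medians removed) was chosen after seeing the data. The number of arrays limits the precision.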

Additional observations from a re-analysis of the deposited data

How the results depend on the processing

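Of the genes called, 8 of 13 in iCSC against Sphere, 9 of 18 in iCSC against Monolayer and 11 of 18 in Sphere against Monolayer kept their call under every alternative run for them, and 0 changed direction while called. Without x_at and s_at probe sets only 16 of the 25 genes, among 7747, could be tested. Of these 16, 9 were called in iCSC against Sphere, 2 of them higher in iCSC, and the median was -0.34. In that setting 9 of 16 were called in iCSC against Monolayer, 2 higher and 7 lower, and 10 of 16 in Sphere against Monolayer, 5 of them lower, with a median of 0.18. With no variance moderation, 4 were lower in iCSC than in Sphere, 10 were called in iCSC against Monolayer, 2 higher and 8 lower, and 4 were higher in Sphere than in Monolayer. With no filter the medians were -0.19 in iCSC against Monolayer and -0.02 in Sphere against Monolayer, and with the mean over passing probe sets the median of Sphere against Monolayer was -0.07. Fewer genes were tested in the setting without x_at and s_at probe sets, and more (38 of the set) with no filter. For the other settings the cause was not tested.

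Leaving out 1 array at a time, iCSC against Sphere had 11 to 15 calls, 5 to 8 higher and 5 to 7 lower, with medians of -0.11 to 0.10. The same for iCSC against Monolayer gave 12 to 18 calls, 2 to 4 higher and 9 to 14 lower, with medians of -0.55 to -0.35. For Sphere against Monolayer it gave 13 to 20 calls, 4 to 8 higher and 8 to 12 lower, with medians of -0.43 to -0.24. Where 1 array was left in a culture, it was assumed to vary like the others. The deviations of same-numbered arrays correlated at 0.17, -0.05 and 0.02 between cultures, which does not settle whether the numbers pair samples. With the replicate block, 12 genes were called in iCSC against Sphere (5 higher, 7 lower), 17 in iCSC against Monolayer (5 higher, 12 lower) and 18 in Sphere against Monolayer (7 higher, 11 lower). Signals under log2 5 give only bounds.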
